A study of Mus musculus with 8 samples.

Results

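The enzymes that keep glutathione, thioredoxin and peroxides in balance were followed as 10 transcripts: Gclc, Gclm, Gss, Gsr, Gpx4, Prdx1, Prdx2, Txnrd1, Sod1 and Cat. They were chosen by symbol as genes of glutathione synthesis and recycling, peroxide removal, thioredoxin reduction and superoxide removal, and each symbol matched 1 of the 37310 Ensembl identifiers in the count tables. RNA had been sequenced from pooled 2-cell mouse embryos. The wild-type pools (n = 4) came from wild-type C57BL/6N females, and the DKO pools (n = 4) from females of the same strain label with knockout of both Gadd45a and Gadd45b. Females were 3 to 4 weeks old, had been superovulated and mated naturally, and embryos were taken 20 h after the plug, with 23 to 35 embryos of 1 litter in a pool. Females and embryos of a pool had the same genotype, so the maternal and the embryonic share of the loss cannot be told apart. In such bulk pools, fewer cells carrying a transcript and less of it per cell cannot be told apart either.

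Glutathione is a small thiol peptide that cells hold at high concentration as an electron donor against peroxides. It is made by glutamate-cysteine ligase, a pair of a catalytic subunit (Gclc) and a modifier subunit (Gclm), followed by glutathione synthetase (Gss), and its oxidized form is returned to the reduced form by glutathione reductase (Gsr) at the cost of NADPH. The oocyte lays down glutathione and many of these enzymes, and the early embryo relies on that store.

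Depth was similar across the libraries, at 21329736 to 23919114 counts, and Gadd45b stood at 0.0442 to 0.615 CPM in DKO pools and 36.1 to 62.3 CPM in wild-type pools, where CPM is counts per 1000000 of the TMM-scaled library. Gadd45a kept 163 to 247 counts in DKO pools, below the 341 to 502 in wild-type pools, with an adjusted p of 0.303 in edgeR and 0.000663 in DESeq2. The labels do not say which exons of Gadd45a the allele lacks, so these counts do not check that label. DKO replicate 1 stood apart in the linear model with sample weights, with a weight of 0.365 where the other 7 libraries had 0.786 to 2.08. All 18 matched markers of the 2-cell stage and all 20 of the oocyte were tested, and none had a mean below 1 CPM. Passing the count filter for testing does not establish the stage, and the oocyte markers are maternal transcripts. The summed 2-cell markers ran from 2546 to 2962 CPM in wild-type and from 2023 to 2706 CPM in DKO. Of 15 cumulus and granulosa cell markers, 11 had a mean below 1 CPM and Ptx3, Inhba, Amh and Foxl2 had no count in any pool. Others of that list had counts, with Nr5a2 the highest at a mean of 95.5 CPM. Bulk pools do not show which cells its reads came from, so its level alone does not establish cumulus or granulosa cells. The list summed to 117 to 176 CPM in wild-type pools and 99.1 to 146 CPM in DKO pools. Of 12 sperm markers, 10 had a mean below 1 CPM, and Odf2 was the highest at 69.1 CPM. The summed oocyte markers ran from 11951 to 19415 CPM in wild-type and from 17883 to 34897 CPM in DKO, highest in DKO replicate 1, and their part in the results below was not tested.

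None of the 10 transcripts passed the test between genotypes. Catalase (Cat) had the widest difference, from 0.246 ± 0.254 CPM in wild-type to 1.83 ± 1.37 CPM in DKO (SD, n = 4 each), and it did not pass after adjustment over all genes. The other 9 differed by at most 1.34-fold in the fit (Gclc), with pools of the genotypes overlapping in each. In edgeR's quasi-likelihood test 0 of the 10 were called at an adjusted p under 0.05, where 0.0267% of the 14970 genes tested were called. DESeq2 (0.198% of its tested genes called) and limma-voom (0.0334% called) also called 0. At an unadjusted p under 0.05 edgeR had 1 member, Cat, against 10.2% of all genes tested. The members had a median log2 fold change of −0.08, with 6 negative and 4 positive, beside 0.01 over all genes tested.

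**Figure D1:**
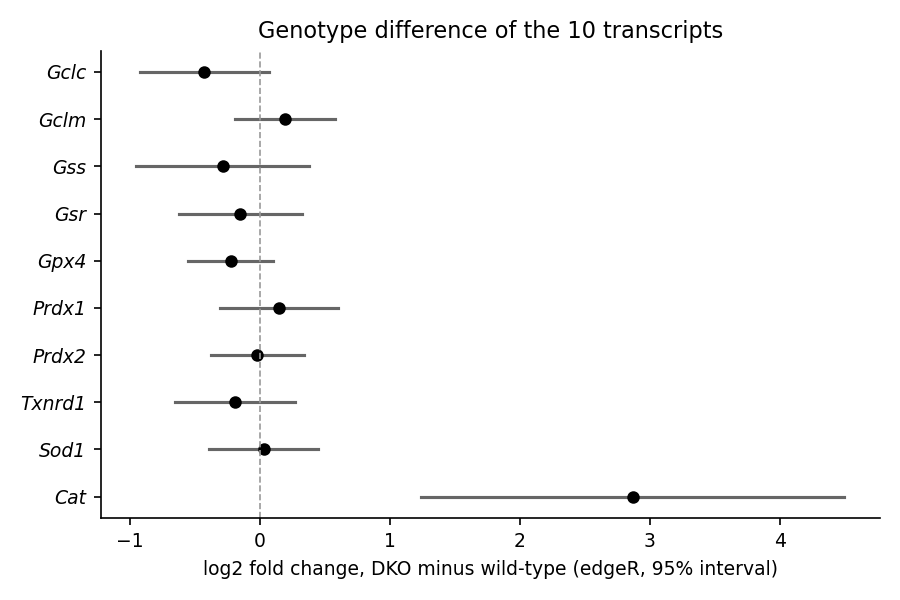
The log2 fold change of each of the 10 transcripts, DKO minus wild-type, from edgeR (points) with 95% intervals (lines), and a dashed line at 0. Only the interval of Cat, from 1.24 to 4.50, leaves out 0, and it is unadjusted.

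The levels per length spanned a 413-fold range from Prdx2 to Gss, with Cat lower still. Levels between genes are given in CPM per kb of the principal mRNA in GENCODE M21, as mean ± SD over all 8 pools. Prdx2 came first at 1195 ± 186 CPM per kb and Prdx1 next at 251 ± 64.4. Both encode cytosolic peroxiredoxins, which reduce hydrogen peroxide with a reactive cysteine. Only 24 of 13010 tested protein-coding genes with a length stood above Prdx2, and 332 stood above Prdx1. Together they made up 86.8% to 91.9% of the summed CPM of the 10 members in a pool. Gpx4, a selenoprotein that reduces lipid peroxides in membranes, followed at 125 ± 18.2 CPM per kb. Sod1, the cytosolic copper-zinc superoxide dismutase, came after it at 31.7 ± 4.40. The ranges over pools did not overlap between any neighbours of this upper part of the order, down to the step from Sod1 to Gsr.

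The lower part of the order was closer. Gsr stood at 13.5 ± 3.06 CPM per kb, Gclc at 10.5 ± 3.24, Gclm at 6.71 ± 1.07, Txnrd1 at 4.99 ± 0.987 and Gss at 2.89 ± 0.873. Ranges of each neighbouring pair among these 5 overlapped, although Gclm was above Txnrd1, and Txnrd1 above Gss, in 8 of 8 pools. Gsr was above Gclc in 6 of 8 pools, and Gclc above Gclm in 7 of 8. Cat was last at 0.397 ± 0.476 CPM per kb (0.0940 in wild-type and 0.699 in DKO), below Gss in 8 of 8 pools without overlap, and 11472 of the 13010 genes stood above it. With the length of all annotated exons instead, Sod1 moved from place 4 to place 7, behind Gsr, Gclc and Gclm, and the order of the other 9 stayed as given.

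**Figure D2:**
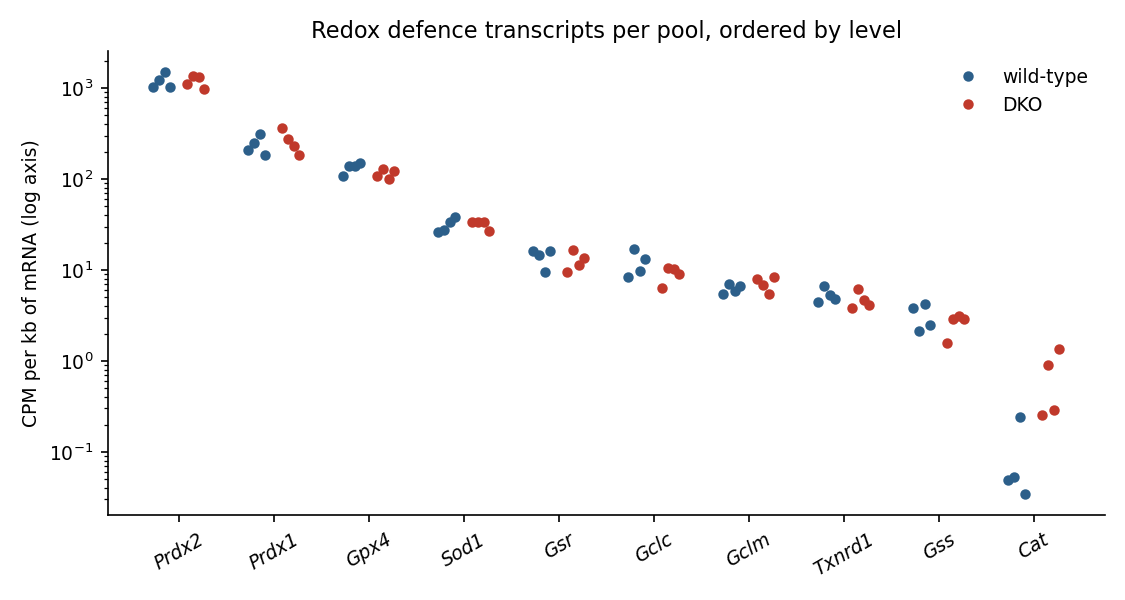
Level of each of the 10 transcripts in every pool, in CPM per kb of mRNA on a log axis, with 4 wild-type and 4 DKO pools as points, ordered from the highest to the lowest mean. Prdx2 and Prdx1 lead, and Cat lies lowest with the widest spread.

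Glutathione synthesis showed no called difference, and its ligase subunits had fold changes of opposite sign. Gclc, whose protein carries out the rate-limiting step, had 28.8, 58.1, 33.4 and 45.1 CPM in wild-type replicates 1 to 4 and 21.9, 35.8, 34.7 and 30.7 CPM in DKO replicates 1 to 4. Wild-type replicate 2 was the highest and DKO replicate 1 the lowest, and 3 of the 4 DKO pools lay within the wild-type range. Its log2 fold change was −0.43 ± 0.23 (SE, 95% interval −0.92 to 0.07, edgeR adjusted p = 0.522). It was −0.22 without wild-type replicate 2.

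Gclm, whose protein makes the ligase more efficient, had 30.4, 39.3, 33.2 and 37.0 CPM in wild-type and 44.2, 38.3, 30.7 and 46.8 CPM in DKO. DKO replicates 1 and 4 lay above every wild-type pool and the other 2 within the wild-type range. Its log2 fold change was 0.19 ± 0.18 (SE, 95% interval −0.19 to 0.58, edgeR adjusted p = 0.691). Within a library the ratio of Gclm to Gclc, per kb, is free of library scaling. It was 0.647, 0.414, 0.610 and 0.502 in wild-type and 1.24, 0.655, 0.541 and 0.933 in DKO. DKO replicate 3 lay inside the wild-type range and the other 3 DKO pools above it. The log2 difference of the ratio was 0.58, with p = 0.114 in an exact two-sided permutation test over 70 assignments of pools, whose smallest p is 0.0286. Without DKO replicate 1 the difference was 0.37.

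Gss, which adds glycine to complete glutathione, was a low transcript, with 69 to 187 counts in a library. It stood at 7.56, 4.18, 8.36 and 4.83 CPM in wild-type and at 3.08, 5.71, 6.06 and 5.61 CPM in DKO. DKO replicate 1 was the lowest pool, and the other 3 DKO pools lay within the wild-type range. The log2 fold change was −0.28 ± 0.31 (SE, 95% interval −0.95 to 0.38, edgeR adjusted p = 0.740), and it was −0.11 without DKO replicate 1 and 0.0038 with sample weights. Gss shares exon sequence with Acss2, Gssos1 and Gssos2 on the opposite strand, and Gclm with Gm17494. The sources used here do not give how strand was counted, and reads of these pairs may not be told apart.

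Gsr, which renews reduced glutathione, had 43.4, 39.1, 25.1 and 43.7 CPM in wild-type and 25.2, 44.9, 30.4 and 36.0 CPM in DKO. The lowest pools were wild-type replicate 3 and DKO replicate 1, and the ranges of the genotypes nearly coincided. Its log2 fold change was −0.15 ± 0.22 (SE, 95% interval −0.62 to 0.32, edgeR adjusted p = 0.813).

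Gpx4 had 103, 132, 134 and 145 CPM in wild-type and 104, 123, 95.7 and 119 CPM in DKO. All 4 DKO pools lay below the 3 highest wild-type pools, while wild-type replicate 1 lay among the DKO pools. On the log2 scale the change was −0.22 ± 0.15 (SE, 95% interval −0.55 to 0.11, edgeR adjusted p = 0.592). Gpx4 lies on chromosome 10 at 0.874 Mb from the targeted Gadd45b locus on GRCm38, and GENCODE M21 lists a pseudogene, Gpx4-ps2, that matches its mRNA at 99.7% over 733 bases and has no identifier in the count tables.

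Txnrd1, the selenoprotein that reduces cytosolic thioredoxin, lies on the same chromosome at 1.90 Mb from Gadd45b. It had 15.8, 23.5, 18.9 and 16.9 CPM in wild-type and 13.3, 21.6, 16.5 and 14.6 CPM in DKO. DKO replicates 1 and 4 lay below all wild-type pools. The other 2 DKO pools lay within the wild-type range. For Txnrd1 the log2 fold change was −0.19 ± 0.22 (SE, 95% interval −0.65 to 0.27, edgeR adjusted p = 0.753). Among the 154 tested genes within 5 Mb of Gadd45b, that gene left out, edgeR called 1 (1190007I07Rik, lower in DKO) and DESeq2 called 3. Pools of the genotypes did not overlap for 17 of the 154, or 11.0%, where 5.34% of all genes tested had no overlap. Gpx4 and Txnrd1 were not among the 17.

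The peroxiredoxins were the most abundant members and had small fold changes. Prdx1 had 481, 565, 712 and 425 CPM in wild-type and 844, 631, 530.0 and 418 CPM in DKO. DKO replicate 1 was the highest pool and DKO replicate 4 the lowest, so the DKO range enclosed the wild-type range. Its log2 fold change was 0.15 ± 0.21 (SE, 95% interval −0.31 to 0.61, edgeR adjusted p = 0.806), and −0.06 without DKO replicate 1. Prdx2 had 1668, 1990.2, 2432 and 1661 CPM in wild-type and 1768, 2172, 2121 and 1595 CPM in DKO. Wild-type replicate 3 was the highest pool and DKO replicate 4 the lowest. The log2 fold change of Prdx2 was −0.02 ± 0.17 (SE, 95% interval −0.38 to 0.34, edgeR adjusted p = 0.976), and its sign turned in 4 of 16 alternative fits. That interval corresponds to 0.770-fold to 1.27-fold of the wild-type level. Annotated copies were sought that match the mRNA at 95% or more over at least 85 bases. Those with an identifier in the count tables held 0.234% of the Prdx1 counts and 0.231% of the Prdx2 counts. Another Prdx1 copy, Gm21399, matches at 98.3% over 597 bases and has no identifier there. The setting for reads with several matches is not given, so these shares do not measure how many reads were ambiguous. Prdx2 also shares exon sequence with Rnaseh2a and Junb on the opposite strand.

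Sod1 turns superoxide into hydrogen peroxide. It had 16.7, 17.7, 21.5 and 24.6 CPM in wild-type and 21.9, 21.3, 21.8 and 17.2 CPM in DKO. All 4 DKO pools lay within the wild-type range. For Sod1 the log2 fold change was 0.03 ± 0.20 (SE, 95% interval −0.39 to 0.45, edgeR adjusted p = 0.963), and its sign turned without DKO replicate 1 and without wild-type replicates 1 or 2. Its near-identical annotated copy Gm8566 held 9.63% as many counts as Sod1, the highest such share among members with a copy in the count tables. The Sod1 level is thus uncertain by reads that could fall on either.

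Cat (chr2:103453849-103485160, minus strand, GRCm38) encodes catalase, the peroxisomal enzyme that splits hydrogen peroxide. It had 3, 3, 14 and 2 counts in wild-type replicates 1 to 4 and 15, 54, 17 and 79 in DKO, or 22 against 165 in all. In CPM these were 0.130, 0.138, 0.626 and 0.0894 in wild-type and 0.671, 2.37, 0.752 and 3.52 in DKO. Every DKO pool lay above every wild-type pool, but DKO replicates 1 and 3 lay only just above wild-type replicate 3. Among all genes tested 2.79% had DKO pools higher without overlap, and 2.55% had them lower, as no member did. Cat passed the count filter for testing through its DKO pools, since wild-type replicates 1, 2 and 4 held 3, 3 and 2 counts. A gene this low in wild-type enters the tested set only when high in DKO. Its separation and direction are therefore not independent of the filter. Without the filter its log2 fold change was 2.86, with an edgeR adjusted p of 0.287. For Cat the log2 fold change was 2.87 ± 0.76 (SE, 95% interval 1.24 to 4.50), with an edgeR unadjusted p of 0.00196 and an adjusted p of 0.469. DESeq2 gave an adjusted p of 0.055 and limma-voom 0.348. Over 16 alternative fits the log2 fold change ran from 2.31 to 3.88 and the adjusted p from 0.055 to 0.746, so none called it. Without wild-type replicate 3 the log2 fold change was 3.88. The summed oocyte markers were 15752, 14799, 19415 and 11951 CPM in wild-type replicates 1 to 4 and 34897, 17883, 22422 and 19718 CPM in DKO. In wild-type pools both Cat and these markers were highest in replicate 3 and lowest in replicate 4, while in DKO pools Cat was lowest in replicate 1, where the markers were highest. The part of these markers in the Cat difference was not tested. No annotated exon of another gene overlaps Cat, and no near-identical copy of its mRNA was found in GENCODE M21.

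**Figure D3:**
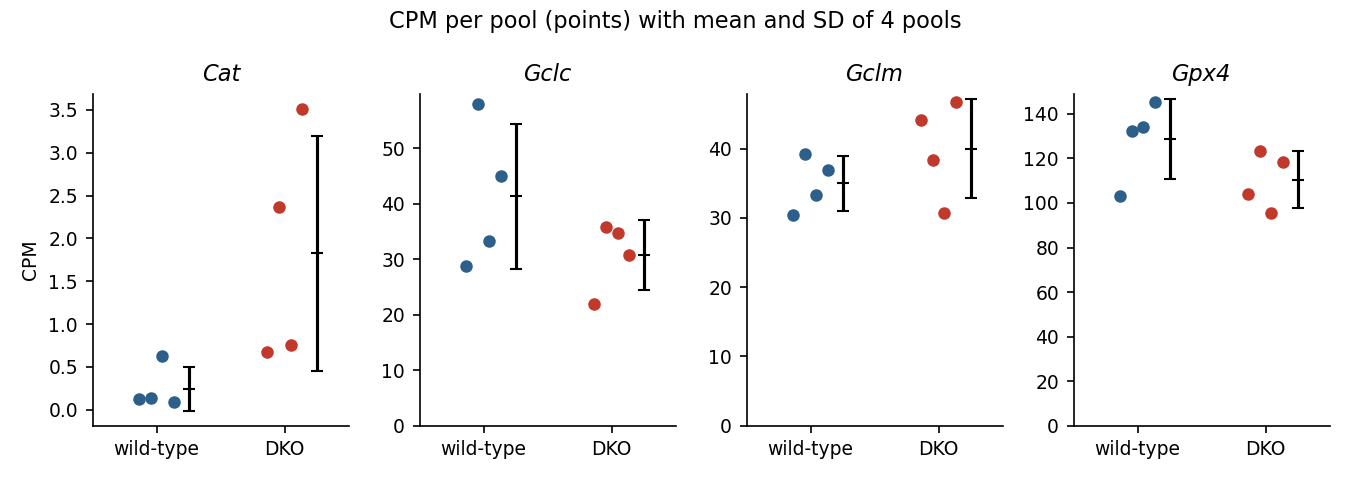
CPM of Cat, Gclc, Gclm and Gpx4 in each of the 4 wild-type and 4 DKO pools (points), with mean and SD (bars beside them). The genotypes separate for Cat alone, at 0.0894 to 0.626 CPM in wild-type and 0.671 to 3.52 CPM in DKO, and overlap for the other 3.

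The summed CPM of the 10 members ran from 2285 (DKO replicate 4) to 3419 (wild-type replicate 3). The median log2 deviation of the members from their wild-type means ran from −0.21 (wild-type replicate 1 and DKO replicate 1) to 0.16 (DKO replicate 2). DKO replicate 1 had the lowest value of 3 members (Gclc, Gss and Txnrd1) and the highest of 1 (Prdx1). DKO replicate 4 was lowest for Prdx1 and Prdx2 and highest for Gclm and Cat. Wild-type replicate 2 was highest for Gclc and Txnrd1 and lowest for none. Apart from Cat, where the highest pool was 39.3-fold above the lowest, the highest pool exceeded the lowest by 1.48-fold (Sod1) to 2.71-fold (Gss).

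Many redox genes are controlled by the transcription factor NRF2, encoded by Nfe2l2, which KEAP1 holds in check and which binds antioxidant response elements. Nfe2l2 stood at 57.1 ± 2.27 CPM (DKO) against 50.5 ± 12.1 (wild-type; SD, n = 4 each, edgeR adjusted p = 0.718). Keap1 stood at 3.90 ± 0.891 CPM (DKO) against 5.10 ± 0.543 (wild-type; edgeR adjusted p = 0.603). Promoter windows of 300 bases (250 before to 50 after the start, from RefSeq on GRCm38.p6) were searched on both strands for the core letters TGACNNNGC. Windows were present for 8 of the 10 members, all but Gclc and Gsr. A match was found for 4 of these 8, Gclm, Prdx1, Txnrd1 and Sod1, in 4 of their 13 windows, where 12.4% of all 32851 windows held one. The 4 stretches are shown because they let the letters around each match be compared; capitals mark the match, which lies on the other strand from the one printed, so that it reads GCNNNGTCA.
Gclm (chr3:122245403-122245451, plus strand): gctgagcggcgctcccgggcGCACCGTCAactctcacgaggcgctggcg
Prdx1 (chr4:116685446-116685494, plus strand): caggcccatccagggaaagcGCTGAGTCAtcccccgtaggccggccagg
Txnrd1 (chr10:82859094-82859142, plus strand): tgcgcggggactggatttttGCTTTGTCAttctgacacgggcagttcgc
Sod1 (chr16:90220686-90220734, plus strand): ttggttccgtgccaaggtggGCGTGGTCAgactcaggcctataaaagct
The matches began 134, 133, 92 and 56 bases before the start site of their window in this order. For Txnrd1 1 of 3 windows held a match, and that stretch lies inside the annotated gene (chr10:82833951-82897712). A match is a description of letters, and the 4 genes with a match had log2 fold changes of 0.19, 0.15, −0.19 and 0.03.

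The wider redox machinery was read from 7 lists with 185 genes, of which 157 were tested. With the members left out, 147 were tested. Of these 0 were called by edgeR, DESeq2 or limma-voom, and 17 (11.6%) had an edgeR unadjusted p under 0.05, 6 higher and 11 lower, where 10.2% of all genes tested did, 867 higher and 665 lower. Pools did not overlap between genotypes for 7 of the 147 (4.76%, against 5.34% of all genes tested). Their median log2 fold change was 0.01, the same as that of all genes to this precision.

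Glutathione synthesis and recycling had 22 tested genes, 11 positive and 11 negative, with a median log2 fold change of 0.00. Its non-member with the smallest p was Shmt2, a mitochondrial enzyme that makes glycine, at 55.4 ± 15.8 CPM (DKO) against 36.5 ± 5.82 (wild-type; SD, n = 4 each, log2 fold change 0.60, edgeR adjusted p = 0.469). Glutathione peroxidases and transferases had 27 tested genes and a median of 0.03. Gpx1, the cytosolic glutathione peroxidase, stood at 298 ± 29.9 CPM (DKO) against 319.9 ± 27.7 (wild-type), above Gpx4 in CPM. Gstcd, a protein with a glutathione transferase domain, had the smallest p, at 11.7 ± 1.07 CPM (DKO) against 17.1 ± 2.56 (wild-type), with no overlap (edgeR adjusted p = 0.469).

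Thioredoxins, peroxiredoxins and glutaredoxins had 32 tested genes, 20 of them negative, and a median of −0.03. Prdx3, the mitochondrial peroxiredoxin, had 36.0, 31.3, 29.8 and 50.6 CPM in wild-type and 12.5, 21.7, 26.8 and 23.8 CPM in DKO. Every DKO pool lay below every wild-type pool. The fitted difference was −0.80 ± 0.24 on the log2 scale (SE; adjusted p = 0.469 in edgeR), from −0.93 to −0.57 over 16 alternative fits, none of which called it. Prdx6, a peroxiredoxin that also acts on phospholipids, stood at 149.7 ± 11.3 CPM (DKO) against 154 ± 18.4 (wild-type). Txn1, the cytosolic thioredoxin, was low at 6.79 ± 2.40 and 6.91 ± 2.00 CPM.

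The list for superoxide and hydrogen peroxide had 23 tested genes and a median of −0.12. Sod2, the mitochondrial superoxide dismutase, varied little, at 119.5 ± 8.89 CPM (DKO) against 123 ± 5.71 (wild-type). Ccs, the copper chaperone of Sod1, stood at 16.4 ± 2.26 and 17.9 ± 2.22 CPM. Park7, a redox-sensitive chaperone, had 89.5 ± 19.4 CPM (DKO) against 117 ± 17.5 (wild-type; edgeR adjusted p = 0.488). None of these values passed the test.

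NRF2 control had 16 tested genes and a median of 0.08, with Bach2, a repressor at such elements, at 23.9 ± 6.81 CPM (DKO) against 14.2 ± 3.15 (wild-type; log2 fold change 0.75, edgeR adjusted p = 0.469). NADPH supply had 19 tested genes and a median of −0.01. G6pdx, the entry enzyme of the pentose phosphate pathway, stood at 101 ± 23.9 CPM (DKO) against 73.1 ± 3.04 (wild-type), with DKO replicate 2 at 69.2 CPM inside the wild-type range (log2 fold change 0.47, edgeR adjusted p = 0.469). Selenoprotein genes and their synthesis factors had 18 tested genes, 12 of them positive, and a median of 0.14. Selenoi, an enzyme of phosphatidylethanolamine synthesis that is itself a selenoprotein, went against that sign. It had 141, 154, 159 and 172 CPM in wild-type and 88.3, 125, 107 and 112 CPM in DKO, with no overlap (log2 fold change −0.53 ± 0.15 SE, edgeR adjusted p = 0.469, DESeq2 adjusted p = 0.0971).

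**Figure D4:**
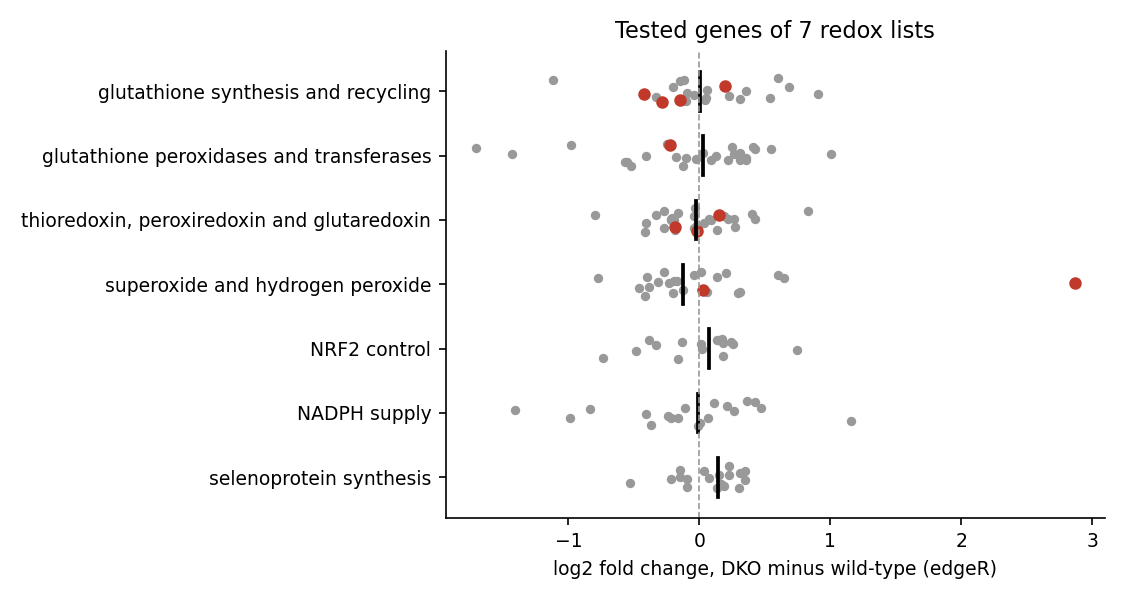
Log2 fold change, DKO minus wild-type, of every tested gene in 7 redox lists (points, spread vertically to separate them), with the members in red and the list median as a black bar. Medians lie between −0.12 and 0.14, and Cat stands apart at 2.87.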

How the data were processed

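Poly(A) RNA of 4 wild-type and 4 DKO pools was amplified with a SMART-Seq v4 kit in 11 PCR cycles and an Ovation Ultralow kit in 11 more, and all libraries were read together on 1 flow cell as single reads of 85 cycles, per the labels' protocols. Neither step as described marks molecules. The deposited values are raw counts per gene. STAR 2.5.2b, featureCounts 1.5.1 and DESeq2 1.18.1 are named in the submitters' processing notes, as are the builds NCBIM37 and mm9. For strand and for reads with several matches, the sources used here give no setting.

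Genes passing filterByExpr were kept, libraries were scaled by TMM, and differences were tested with edgeR 4.0.16 (robust quasi-likelihood, R 4.3.3, Benjamini-Hochberg over all 14970 genes, threshold 0.05). Alternatives were DESeq2 1.42.0, limma-voom 3.58.1 with sample quality weights, RLE, upper-quartile and total-count scaling, no filter, a replicate block, embryos per pool as a covariate and each library left out. Calls were tested on simulated data. Changes were seeded there only in genes above the level of Cat, and by folds larger than those fitted for the remaining members. The simulation therefore does not cover the differences of the members. Lengths, positions and copies came from GENCODE M21 on GRCm38, which is newer than the builds named for the counts. Genes named were the members, Gadd45a and Gadd45b, 7 fixed redox genes (Ccs, Sod2, Txn1, Gpx1, Prdx6, Nfe2l2 and Keap1) and, in each list, the non-member with the smallest p at a mean of at least 10 CPM; others were named after their values were seen. The members and lists were chosen with earlier results of these data known. No replicate pair agreed within sampling noise, with a lowest chi-square per degree of freedom of 22.2.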

Additional observations from a re-analysis of the deposited data

Results flagged for a closer look

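In 4 of 54 groups of 4 pools, 1 pool lay far from the other 3 by Dixon's criterion, which chance meets in about 1 in 20 groups. Cat was at 0.626 CPM in wild-type replicate 3 and at 0.0894 to 0.138 CPM in the other wild-type pools. Gss was at 3.08 CPM in DKO replicate 1 and at 5.61 to 6.06 CPM in the other DKO pools. Sod1 was at 17.2 CPM in DKO replicate 4 and at 21.3 to 21.9 CPM in the others. Gstcd was at 10.1 CPM in DKO replicate 3 and at 12.1 to 12.3 CPM in the others.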

How the results depend on the processing

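The count of called members was 0 in each of the 16 alternative fits, as was that of the other redox genes, and edgeR called 4 to 7 genes in all in the edgeR alternatives. Among genes within 5 Mb of Gadd45b DESeq2 called 3. The members' median log2 fold change ran from −0.18 to −0.01. Signs turned for values near 0: with sample weights Gss was at 0.0038 and Prdx1 at −0.024, and with library size alone Prdx2 was at 0.029, Sod2 at 0.0083, Txn1 at 0.028 and Prdx6 at 0.012. With embryos per pool as a covariate Txn1 was at 0.027. When each library was left out in turn, values ran from −0.059 to 0.30 for Prdx1, −0.090 to 0.10 for Prdx2, −0.054 to 0.14 for Sod1, −0.29 to 0.14 for Txn1 and −0.11 to 0.016 for Prdx6. The labels name no tie between same-numbered pools beyond the number. Their deviations correlated at 0.00235 to 0.0780, and 2 of 8 pools correlated best with their own number. These values cannot settle whether such pools were handled together. With the replicate block 0 members were called and their median was −0.08. Library size alone moved the median of all genes from 0.01 to 0.07. Cat and Gss had the fewest counts of the members, so depth limits them most.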

Other observations

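The NADPH supply list held genes of both signs with an edgeR unadjusted p under 0.05: 3 higher and 3 lower in DKO, 6 of 19 tested (31.6%) where 10.2% of all genes tested reached it, and 0 were called after adjustment. Besides G6pdx, the higher ones were Mthfd2, a mitochondrial folate enzyme, at 140.0 ± 41.0 CPM (DKO) against 104 ± 13.8 (wild-type; SD, n = 4 each), and Aldh1l2, another mitochondrial folate enzyme, at 2.23 ± 0.730 CPM (DKO) against 0.997 ± 0.481 (wild-type). Aldh1l2 is among the tested genes within 5 Mb of Gadd45b. The lower ones began with Pgls, of the pentose phosphate pathway, at 3.08 ± 1.60 CPM (DKO) against 6.11 ± 2.09 (wild-type). Mthfd1, the cytosolic folate enzyme, stood at 6.72 ± 1.67 CPM (DKO) against 12.0 ± 4.98 (wild-type). The malic enzyme Me2 stood at 96.4 ± 14.2 CPM (DKO) against 125 ± 20.8 (wild-type). The genotypes overlapped for all 6, and all except G6pdx were named after their values were seen. Of the 7 redox lists this one had the highest share at an edgeR unadjusted p under 0.05. The shares of the others ran from 4.55% to 13.0%.

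Apart from Cat, Prdx3, Gstcd and Selenoi, the redox genes whose pools did not overlap were Prdx5, Pdia4, Ucp2 and Gstm6, named after their values were seen. Prdx5, a peroxiredoxin of several compartments, was lower in every DKO pool, at 95.1 ± 7.62 CPM (DKO) against 110.0 ± 2.93 (wild-type; log2 fold change −0.21). Pdia4, a disulfide isomerase of the endoplasmic reticulum, stood at 76.0 ± 9.42 CPM (DKO) against 101 ± 10.1 (wild-type; log2 fold change −0.41). Ucp2, an inner mitochondrial membrane carrier, was lower at 2.84 ± 0.915 CPM (DKO) against 4.86 ± 1.10 (wild-type), and Gstm6, a glutathione transferase, higher at 1.49 ± 0.149 CPM (DKO) against 1.01 ± 0.243 (wild-type). None passed the adjusted test. The edgeR unadjusted p was 0.0161 for Pdia4 and 0.0344 for Ucp2. For Prdx5 (0.139) and Gstm6 (0.233) it was not under 0.05 either. Gstm6 had only 18 to 37 counts in a library.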
